A study of Homo sapiens with 16 samples.

Results

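The OAS genes encode the 2'-5'-oligoadenylate synthetases and their relative OASL, and were taken by symbol from the deposited tables: OAS1, OAS2, OAS3 and OASL, which are 4 of the 60669 genes listed in each table. The cells were HMC3, a human line described as microglial, either wild type (WT) or labelled as a METTL3 knockout. METTL3 is the catalytic subunit of the complex that writes N6-methyladenosine on RNA, and no further agent or allele was named for either group. Each genotype had 5 poly(A) libraries made with Smart-seq2 and 3 libraries made after ribosomal RNA depletion, 16 libraries in all. The labels did not say how the knockout was made, whether it was 1 clone, or whether the libraries of a group came from separate cultures, so p-values measure the spread between these libraries, which may be technical.

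OAS1, OAS2 and OAS3 bind double-stranded RNA, a sign of viral infection that can also arise from a cell's own transcripts, and then link ATP into short 2'-5'-linked oligoadenylates. These oligoadenylates switch on a latent ribonuclease that cuts single-stranded RNA and can stop translation and kill the cell. The 3 enzymes carry different numbers of the same synthetase unit and differ in the RNA length they respond to, with OAS3 binding long double-stranded RNA best. OASL has lost the synthetase activity and acts through ubiquitin-like domains, among other ways as a partner of the RNA sensor RIG-I. The family is a classic set of interferon-stimulated genes, switched on by transcription factors such as STAT2 and IRF9 through an interferon-stimulated response element.

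In GENCODE 29 (GRCh38), OAS1 (ENSG00000089127) lies on chromosome 12 from 112906777 to 112933222, OAS3 (ENSG00000111331) from 112938352 to 112973249 and OAS2 (ENSG00000111335) from 112978395 to 113011723. All 3 are protein-coding genes on the plus strand, in a row of 104.9 kb with gaps of 5.13 kb and 5.14 kb. OASL (ENSG00000135114) lies 8.01 Mb further along the chromosome, from 121019111 to 121039242 on the minus strand. An antisense gene on the minus strand, AC004551.1, spans most of the row. AC004551.1 stood at 0 TPM in each of the 6 rRNA-depleted libraries and had a mean normalized count of 0.129 in the authors' deposited table, so few if any counted reads were assigned to it. Whether the authors' counting used strand was not stated. Near-identical stretches among the synthetase units could also have split reads between the OAS genes, which was not tested.

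Promoter sequences of RefSeq (GRCh38.p14) were at hand for 2 of the 4 genes, OAS1 (chr12:112906712-112907011) and OAS3 (chr12:112938224-112938523), both on the plus strand. OAS2 and OASL were not among the sequences. Those of OAS1 and OAS3 are shown because they were the 2 at hand. Whether their promoters bear on the levels of these genes was not tested. Each window runs 5' to 3' from 250 bases before the start that RefSeq gives to 50 bases from it; the GENCODE start named above lies inside the window, upstream of the RefSeq start, from which positions are counted. Capitals mark 2 copies of GAAA separated by 1 or 2 bases.
OAS1: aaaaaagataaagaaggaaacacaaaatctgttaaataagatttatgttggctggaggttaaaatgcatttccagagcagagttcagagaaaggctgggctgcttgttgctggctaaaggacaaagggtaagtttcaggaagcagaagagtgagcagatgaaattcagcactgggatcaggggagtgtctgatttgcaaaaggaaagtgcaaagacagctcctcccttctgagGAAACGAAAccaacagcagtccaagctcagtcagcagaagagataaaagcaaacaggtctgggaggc
OAS3: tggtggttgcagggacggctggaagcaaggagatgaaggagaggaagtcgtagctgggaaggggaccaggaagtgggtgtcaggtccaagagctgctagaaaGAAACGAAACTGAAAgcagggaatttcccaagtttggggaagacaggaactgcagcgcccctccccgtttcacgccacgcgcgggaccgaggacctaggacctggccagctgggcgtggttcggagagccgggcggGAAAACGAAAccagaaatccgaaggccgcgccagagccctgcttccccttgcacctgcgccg
The core of the interferon-stimulated response element, GAAANNGAAA, was searched on both strands, together with a form with a shorter gap, GAAANGAAA. OAS1 held 1 match of the shorter form, from -17 to -9 relative to the RefSeq start, and none of GAAANNGAAA. OAS3 held 2 matches of GAAANNGAAA, from -143 to -134 and from -12 to -3, and 1 match of the shorter form from -148 to -140 that overlaps the first of them. Among 35116 promoter windows of the same length, 3.57% held GAAANNGAAA and 3.12% held GAAANGAAA. The core of the gamma-activated site, TTCNNNGAA, was found in OAS1 from -168 to -160 and in 7.66% of all windows, with no match in OAS3. A match describes the letters only.

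Before the values, the libraries themselves need a description. TPM, a gene's length-corrected share of its library, was turned back into whole reads with gene lengths from GENCODE 29, which gave 266157 to 487272 reads for the wild-type libraries and 512627 to 1267171 reads for the knockout-labelled ones. Knockout-labelled libraries 1 and 2 did not differ detectably beyond sampling noise (chi-square of 1.02 per degree of freedom over 10117 genes, p = 0.0687), where the other pairs within a group had 1.17 to 1.54. They were averaged and counted as 1 sample, so that 3 wild-type samples were compared with 2 knockout-labelled ones. METTL3 mRNA was not lower in the knockout-labelled libraries (39.2 to 42.7 TPM, against 25.4 to 31.6 TPM in the wild type), so it does not check the label. Of 10 microglia and macrophage markers, 7 (AIF1, CX3CR1, P2RY12, TMEM119, ITGAM, PTPRC and SPI1) had 0 TPM in each of the 6 rRNA-depleted libraries, and the list summed to at most 6.47 TPM. The 6 fibroblast and pericyte markers summed to between 10359 and 12827 TPM in the wild type, where the knockout-labelled libraries had between 1162 and 1308 TPM; their part in the results below was not tested. Over all tested genes the median log2 change between the genotypes in the rRNA-depleted libraries was 0.41.

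In wild-type cells OAS3 was the one synthetase gene with more than 3 reads in any rRNA-depleted library, and in knockout-labelled cells OAS1, OAS2 and OAS3 all stood between 25.8 and 36.6 TPM. OAS1 and OAS2 were higher in both library types, OAS3 passed the test in the poly(A) libraries but not in the rRNA-depleted ones, and OASL did not pass in either. The authors' deposited table does not state which genotype is the numerator of its fold changes; it was taken as the knockout, and all its directions below rest on that. By the authors' deposited table, 3 of the 4 genes had an adjusted p under 0.05, all higher in the knockout-labelled libraries, where 19.9% of all genes passed, 9.55% higher and 10.3% lower (these 2 shares change places if the numerator is the wild type). In the rRNA-depleted libraries 2 of the 4 had a limma adjusted p under 0.05, both higher, where 35.3% of all genes passed and 22.9% were higher. Of the genes that passed, 64.8% were higher, against 48.6% with median ratio scaling and 52.5% by voom on recovered reads, while OAS1 and OAS2 passed as higher under each. In these bulk samples, more cells with a transcript and more RNA per cell cannot be told apart. Every knockout-labelled library lay above every wild-type library for 3 of the 4 genes, which was so for 38.4% of all genes tested.

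OAS1, the smallest synthetase, stood at 1.43, 0 and 0 TPM in wild-type libraries 1 to 3, from 1 read in all. It stood at 35.2, 33.8 and 36.6 TPM in knockout-labelled libraries 1 to 3, from 52, 61 and 28 reads. All wild-type libraries were thus at or near 0 and all knockout-labelled ones high, within 3 TPM of each other, with no overlap. The upper limit for 0 reads, taken as 3 reads, was 6.28 TPM for OAS1 in wild-type library 2 and 3.63 TPM in library 3. The mean was 0.477 ± 0.827 TPM (SD, n = 3) in the wild type, against 35.5 ± 1.45 TPM (SD, n = 2) in the knockout-labelled samples. On the log2(TPM + 1) scale OAS1 rose by 4.76 (SE 0.57), with a limma adjusted p of 0.00418. Since the wild type rests on 1 read, the ratio of depth-scaled reads was 69.8 with an exact 95% interval of 12.3 to 2775, which covers counting error only.

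OAS2, which carries a pair of synthetase units, followed the same pattern. Its wild-type libraries held 1.13, 0 and 0 TPM, again from 1 read in all, and its knockout-labelled libraries 35.3, 34.5 and 28.9 TPM, from 66, 79 and 28 reads. Here too the groups lay far apart, and knockout-labelled library 3 was the lowest of its group. The mean was 0.377 ± 0.653 TPM (SD, n = 3) in the wild type, against 31.9 ± 4.29 TPM (SD, n = 2) in the knockout-labelled samples. OAS2 rose by 4.67 on the log2(TPM + 1) scale (SE 0.54), with a limma adjusted p of 0.00383. The ratio of depth-scaled reads was 85.6, with an exact 95% interval of 15.2 to 3400 for counting error.

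OAS3, the largest synthetase, was well above 0 in every library. Wild-type libraries 1 to 3 had 13.7, 21.3 and 25.4 TPM, from 16, 17 and 35 reads. Knockout-labelled libraries 1 to 3 had 33.7, 35.9 and 25.8 TPM, from 83, 108 and 33 reads. The groups did not overlap, but wild-type library 3 and knockout-labelled library 3 were less than 1 TPM apart, and their counting intervals (17.7 to 35.3 TPM and 17.8 to 36.3 TPM) covered nearly the same range. The mean was 20.2 ± 5.92 TPM (SD, n = 3) in the wild type, against 30.3 ± 6.33 TPM (SD, n = 2) in the knockout-labelled samples. OAS3 thus differed by 0.59 on the log2(TPM + 1) scale (SE 0.33; limma 95% interval -0.25 to 1.43), with a limma adjusted p of 0.22. That change lay 0.18 above the median of all genes, and the ratio of depth-scaled reads was 1.63 with an exact 95% interval of 1.24 to 2.17 for counting error alone.

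OASL, the member without synthetase activity, was too thinly covered for a comparison. Wild-type libraries 1 to 3 gave 6.04, 0 and 0 TPM and knockout-labelled libraries 1 to 3 gave 2.86, 0.779 and 3.67 TPM, from 3 and 6 reads in all. The groups overlapped, and the highest of the 6 libraries was wild-type library 1. OASL differed by 0.92 on the log2(TPM + 1) scale (SE 1.01; limma 95% interval -1.62 to 3.46), with a limma adjusted p of 0.511. The ratio of depth-scaled reads was 0.989, with an exact 95% interval of 0.211 to 6.11 for counting error, so a difference was not detectable at this depth. Without wild-type library 1, which held all 3 wild-type reads, the log2 change was 1.86 with a limma adjusted p of 0.0602.

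**Figure D1:**
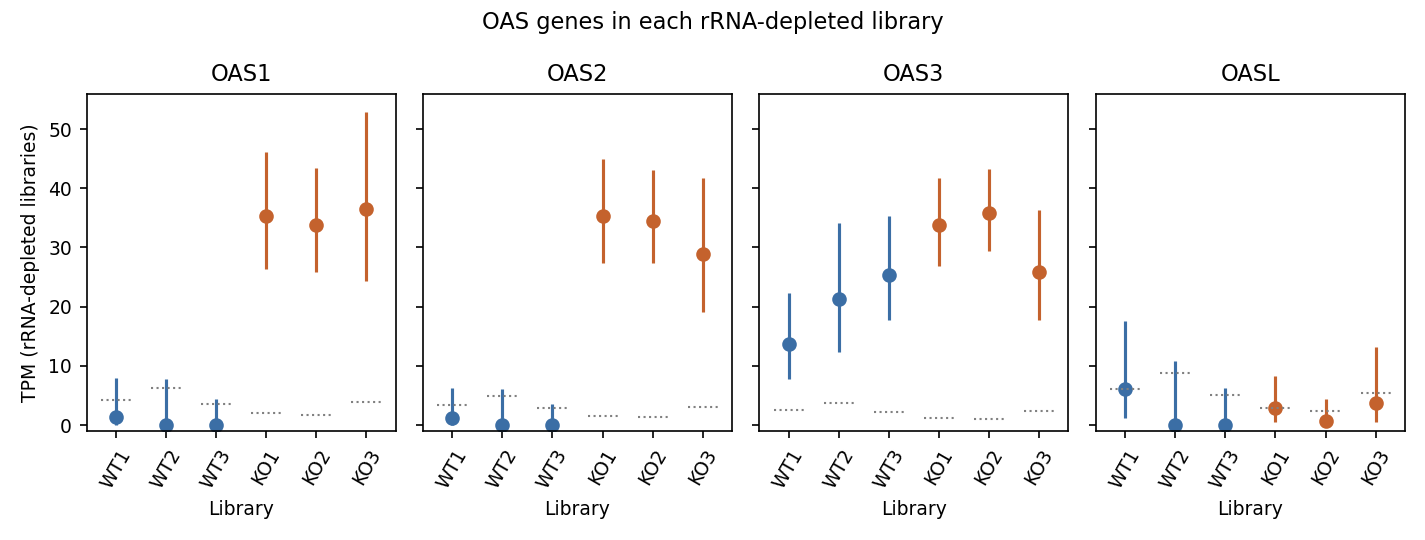
TPM of each OAS gene (y axis) in the 6 rRNA-depleted libraries (x axis; WT, wild type, blue; KO, knockout-labelled, orange). Points are the deposited values, vertical bars exact 95% Poisson intervals of the reads behind them and dotted marks the value of 3 reads; OAS1 and OAS2 lie at 1.43 TPM or less in the wild type and at 28.9 TPM or more in the knockout-labelled libraries.

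TPM is per length, but the length here was the union of a gene's exons (4947 bases for OAS1, 6264 for OAS2 and 8251 for OAS3). Which transcripts were present was not tested, so levels of different genes can be set beside each other only roughly. In the wild-type libraries the order by mean level in TPM was OAS3 (20.2), OASL (2.01), OAS1 (0.477) and OAS2 (0.377), and the last 3 did not differ beyond their spread and their few reads. In the knockout-labelled libraries the order in TPM was OAS1 (35.5), OAS2 (31.9), OAS3 (30.3) and OASL (2.75). There the 3 synthetase genes did not differ from each other beyond the spread of the samples, and OASL lay below all of them in every library. OAS3 made up 84.3%, 100% and 100% of the summed TPM of OAS1, OAS2 and OAS3 in wild-type libraries 1 to 3. In knockout-labelled libraries 1 to 3 its share was 32.3%, 34.4% and 28.3%, while the sum had gone from between 16.3 and 25.4 TPM to between 91.2 and 104.3 TPM. Such shares are formed within a library and so do not depend on how libraries are scaled to each other, but they do depend on the lengths used. The wild-type shares also rest on 1 read in all of OAS1 and 1 of OAS2. In wild-type library 2 the upper limit for 0 reads, taken as 3 reads, was 6.28 TPM for OAS1 and 4.96 TPM for OAS2. OAS3 stood at 21.3 TPM there, so its share may have been well under 100%.

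**Figure D2:**
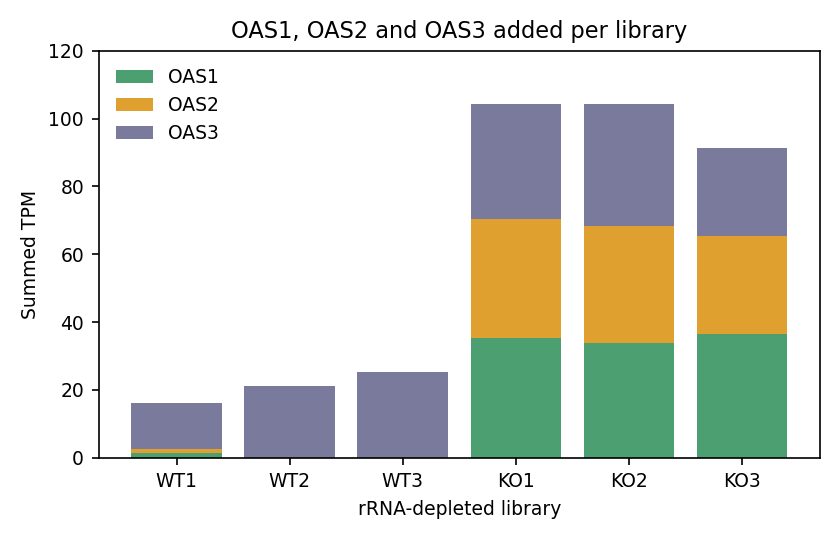
Stacked bars of the TPM of OAS1, OAS2 and OAS3 (y axis, summed TPM) in each rRNA-depleted library (x axis; WT, wild type; KO, knockout-labelled). OAS3 fills nearly all of the wild-type bars and 28.3% to 34.4% of the knockout-labelled bars. The wild-type bars hold 1 read in all of OAS1 and 1 of OAS2, so their shares are limited by depth.

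Whether the genes changed by different amounts was tested on the within-library difference of log2(TPM + 1), over 3 pairs of genes. OAS1 lay below OAS3 by 2.60 to 4.72 log2 units in the wild-type samples, and from 0.01 below to 0.49 above it in the knockout-labelled samples. Its change exceeded that of OAS3 by 4.17 (two-sided exact permutation p = 0.2, the smallest that 3 against 2 samples allow, and 0.3 after Benjamini-Hochberg adjustment over the 3 pairs). For OAS2 the excess over OAS3 was 4.08 (exact permutation p = 0.2, adjusted 0.3). With so few samples neither could pass, so the test cannot decide whether these changes differed. The differences of OAS1 and of OAS2 from OAS3 did not overlap between the samples of the 2 genotypes. How often this holds among other pairs of genes was not counted. The wild-type differences rest on 1 read in all of OAS1 and 1 of OAS2, and on the 1 TPM added before taking logs. The changes of OAS1 and OAS2 differed by 0.09 (exact permutation p = 0.8, adjusted 0.8). Both genes had 0 reads in wild-type libraries 2 and 3, which sets their difference there at 0, so this value does not show equal changes. In the authors' deposited table the Wald 95% interval of the log2 fold change was 3.64 to 4.58 for OAS2 and 2.63 to 3.32 for OAS1.

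The poly(A) libraries gave a finer view of the same genes, with no value for a single library. The authors' deposited table put OAS2 at 4.11 (SE 0.24) as a log2 fold change, or 17.2-fold (adjusted p 1.46e-62). OAS1 came to 2.98 (SE 0.18) on that scale, or 7.87-fold (adjusted p 5.07e-61), in the authors' deposited table. OAS3 was the least raised of the synthetases in the authors' deposited table, at 1.99 (SE 0.13) or 3.97-fold (adjusted p 2.78e-48). For OASL the authors' deposited table gave 0.47 (SE 0.40; Wald 95% interval -0.31 to 1.26; adjusted p 0.462). The mean normalized count in the authors' deposited table was 123 for OAS1, 95.5 for OAS2, 136 for OAS3 and 8.72 for OASL, so OASL was the thinly covered member there as well. These counts are not divided by length and give no order of levels between genes.

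Side by side, the log2 changes of OAS1 were 2.98 in the authors' deposited table and 4.76 in the rRNA-depleted libraries, and those of OAS2 were 4.11 and 4.67. For OAS3 the Wald 95% interval from the authors' deposited table, 1.73 to 2.25, lay above the limma 95% interval of the rRNA-depleted libraries, -0.25 to 1.43. The scales differ (a fold of normalized counts and a change of log2(TPM + 1)), and the difference between the library types was not tested. In the rRNA-depleted libraries OAS1 and OAS2 ranked 72nd and 79th of 14789 genes by log2 change, and OAS3 6555th. Log2 changes there also varied with GC content, and against the median of genes of like GC content the changes were 4.18 for OAS1, 3.96 for OAS2, 0.50 for OAS3 and 0.54 for OASL.

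The other genes of the pathway were read from lists of named genes, starting with those that handle 2-5A itself. None of the 4 (PDE12 and AKAP7, which degrade 2-5A, ABCE1, known as an inhibitor of the ribonuclease as well as a ribosome recycling factor, and CGAS, a synthase of the same fold that makes cGAMP) had an adjusted p under 0.05 in the authors' deposited table, where their median log2 fold change was -0.20 against 0.02 for all genes. In the rRNA-depleted libraries 3 were tested, 1 rose and 1 fell, with a median log2 change of -0.52; with median ratio scaling 0 rose and 2 fell, and without knockout-labelled library 3, 0 rose and 1 fell. CGAS fell by 3.13 on the log2(TPM + 1) scale (SE 0.30; limma adjusted p 0.00261), from 63.1, 47.3 and 72.0 TPM to 7.26, 7.91 and 4.66 TPM. The CGAS values of the genotypes were far apart, and their change was opposite in sign to that of OAS1. ABCE1 rose by 1.38 (SE 0.33; limma adjusted p 0.0281), which did not pass with median ratio scaling of the libraries (limma adjusted p 0.0537) or without wild-type library 1 (0.0591) or knockout-labelled library 3 (0.118).

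Of the other sensors of double-stranded RNA and their adaptors, 4 of 8 were higher and 0 lower by the authors' deposited table, with 0.64 as the median log2 fold change, where 9.55% of all genes were higher. They were RIGI (2.33), IFIH1 (2.84), EIF2AK2 (1.26) and ADAR (0.77), given as log2 fold changes of the authors' deposited table. RIGI and IFIH1 encode the cytosolic sensors RIG-I and MDA5, EIF2AK2 the kinase PKR, and ADAR an enzyme that edits double-stranded RNA. In the rRNA-depleted libraries 2 of 7 rose and 2 fell, where 22.9% of all genes rose and 35.3% passed either way, with a median log2 change of 0.59. With median ratio scaling 2 rose and 3 fell, where 2364 of all 14789 genes rose and 2499 fell. Without knockout-labelled library 3 the median of the list was 0.70, against 0.50 for all genes. RIGI rose from 6.51, 9.51 and 2.75 TPM to 80.8, 97.5 and 77.1 TPM, a log2 change of 3.66 with an SE of 0.49 (limma adjusted p 0.00535). ADAR rose by 2.17 (SE 0.23; limma adjusted p 0.00323). EIF2AK2 fell by 1.05 (SE 0.12; limma adjusted p 0.00342), opposite to the authors' deposited table. MAVS, the adaptor of both cytosolic sensors, fell by 1.35 (SE 0.11; limma adjusted p 0.00188), against -0.00033 in the authors' deposited table. The sensors and adaptors of this list thus did not move as 1 group in the rRNA-depleted libraries.

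The interferon receptor, its kinases and the transcription factors that act on OAS promoters made up a list of 10. Of these, 5 were higher and 0 lower by the authors' deposited table, with 0.63 as the median log2 fold change (9.55% of all genes were higher), among them IRF1 (0.76), IRF7 (0.69), JAK1 (0.63) and STAT2 (0.62). IRF9, the DNA-binding partner of STAT2, stood at 1.07 (SE 0.48; adjusted p 0.106) on the log2 scale of the authors' deposited table. In the rRNA-depleted libraries 3 of 10 rose and 3 fell (22.9% of all genes rose and 35.3% passed either way), with a median log2 change of 0.27 against 0.41 for all genes. Without knockout-labelled library 3 the median of the list was 0.11, against 0.50 for all genes. JAK1 rose by 1.64 (SE 0.30; limma adjusted p 0.0126). STAT2 rose by 0.55 (SE 0.16; limma adjusted p 0.0441), a call that was lost under 9 of 15 alternatives, among them median ratio scaling (0.20, limma adjusted p 0.324). Of the receptor genes, IFNAR1 fell by 1.37 (SE 0.25; limma adjusted p 0.0128) and IFNAR2 fell by 2.47 (SE 0.30; limma adjusted p 0.00439), and IRF3, which acts upstream of interferon genes, fell by 1.14 (SE 0.14; limma adjusted p 0.00425). IFNAR1, IFNAR2 and IRF3 did not pass in the authors' deposited table, where they stood at -0.05, -0.41 and 0.29 on the log2 scale.

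The interferon genes themselves were hardly seen. Of 9 (IFNB1, IFNA1, IFNA2, IFNE, IFNK, IFNL1, IFNL2, IFNL3 and IFNG), 8 stood at 0 TPM in each rRNA-depleted library, and IFNE had 1 read in each of 2 libraries. None had an adjusted p in the authors' deposited table, and the highest mean normalized count there was 0.288, of IFNB1. A difference in interferon mRNA was not detectable at this depth.

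Other interferon-stimulated genes form a list of 26, all chosen because interferon is known to raise them, with earlier results of these data known. By the authors' deposited table, 24 of 25 were higher and 0 lower, with 1.86 as the median log2 fold change, where 9.55% of all genes were higher. In the authors' deposited table OAS2 (4.11) had a larger log2 fold change than each gene of this list apart from BST2 (4.99). In the rRNA-depleted libraries 15 of 23 rose and 1 fell (22.9% of all genes rose), with a median log2 change of 2.24. With median ratio scaling 12 rose and 1 fell, where 2364 of all 14789 genes rose and 2499 fell. Without knockout-labelled library 3 the median of the list was 2.27, against 0.50 for all genes. SAMD9L, an antiviral factor that acts on translation, went from 0 TPM in all 3 wild-type libraries to 12.2, 11.9 and 11.8 TPM, with a limma adjusted p of 0.00304. RSAD2, which encodes viperin, went from 0 in all 3 to 8.32, 6.80 and 9.35 TPM (limma adjusted p 0.00411). Knockout-labelled libraries 1 to 3 held 26, 31 and 13 reads of SAMD9L and 12, 12 and 7 of RSAD2, and the wild-type libraries were shallower. IFI44L also had 0 wild-type reads, with 5, 1 and 1 knockout-labelled reads. SAMD9L and RSAD2 thus had no wild-type reads, and OAS1 and OAS2 had 1 each. At this depth that does not show that a transcript was absent. By the authors' deposited table OAS1, OAS2, SAMD9L and RSAD2 had folds of 7.87, 17.2, 8.09 and 10.6. Their mean normalized counts there were 123, 95.5, 41.3 and 32.5, so both genotypes held reads of each in the poly(A) libraries. IFI6 was the member that fell, by 0.76 (SE 0.10; limma adjusted p 0.0058), whereas the authors' deposited table had it at 2.18 (log2 fold change). Promoter windows were at hand for 22 of the 26, of which 15 held GAAANNGAAA and 18 held it or the form with the shorter gap, as OAS1 and OAS3 did; over all windows 6.40% held either.

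**Figure D3:**
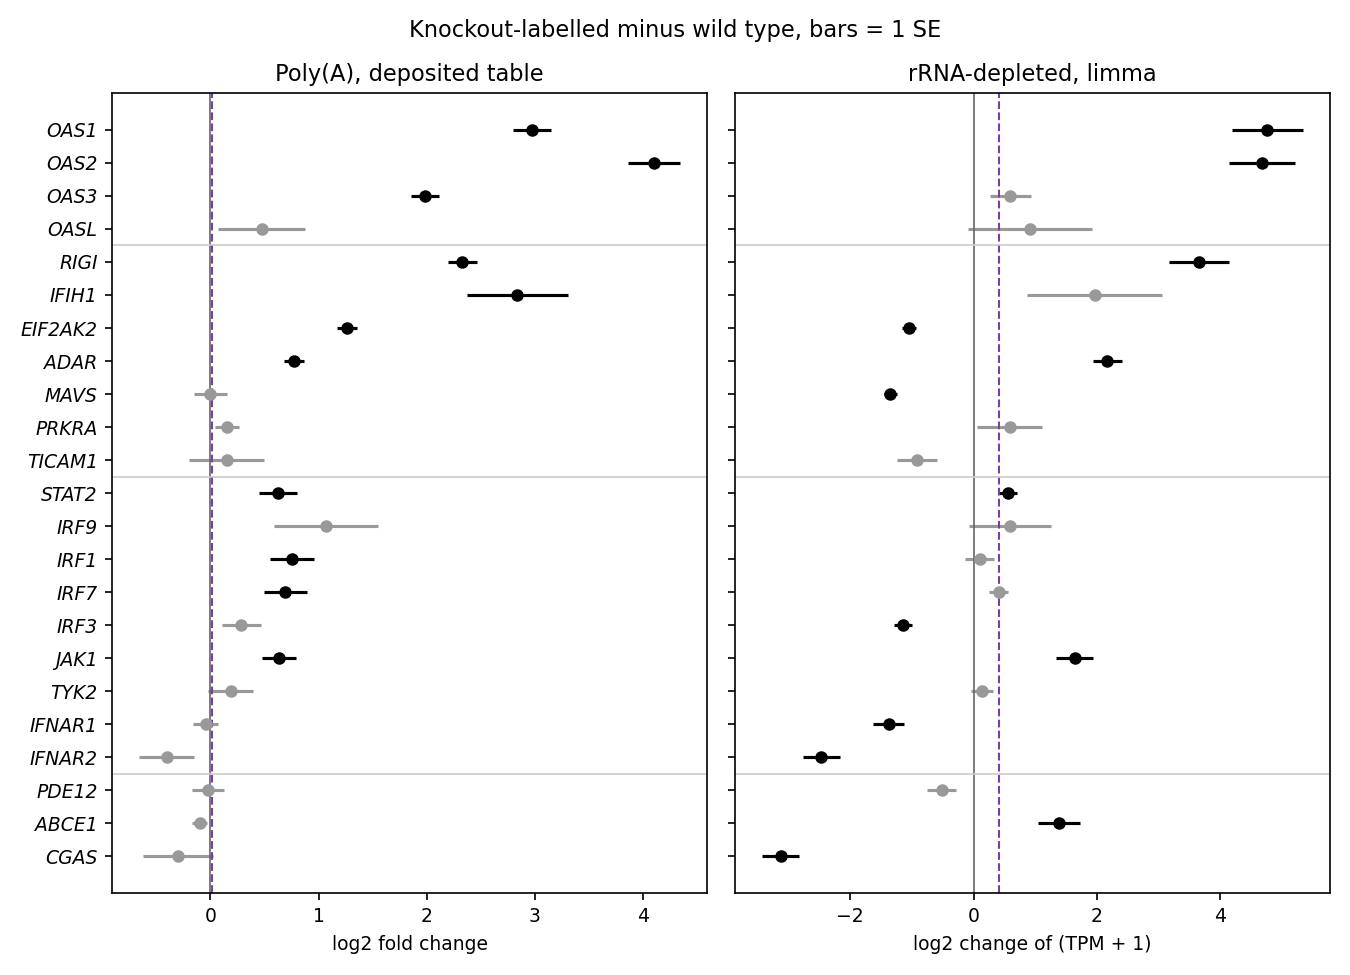
Log2 fold changes of the authors' deposited table for the poly(A) libraries (left) and limma log2 changes of TPM + 1 in the rRNA-depleted libraries (right), knockout-labelled minus wild type, for the OAS genes, sensors, interferon signalling genes and 2-5A genes from top to bottom. Bars are 1 SE, black points have an adjusted p under 0.05, grey points do not, and dashed lines mark the median of all genes (0.02 and 0.41); OAS1 and OAS2 lie farthest right in the right panel.

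Genes near the OAS genes on the chromosome were read as well. RPH3A, DTX1 and RASAL1, near the row of OAS1, OAS3 and OAS2, and P2RX7, near OASL, had no adjusted p in the authors' deposited table and at most 2 reads in any rRNA-depleted library.

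The genes most like each OAS gene across the 6 rRNA-depleted libraries were found by the root mean square difference of log2(TPM + 1), centred on each gene's mean, among 12899 genes with a mean of at least 5 TPM. OAS1 and OAS2 were each other's nearest gene, at 0.134. Next to OAS1 came DHFRP1 (0.448) and CCL2 (0.449), and next to OAS2 came DHFRP1 (0.376) and LYSMD3 (0.379), all 3 of them listed at 0 TPM in the wild-type libraries. For OAS3 the nearest were NOL4L (0.0971), ORC1 (0.102) and SLC4A8 (0.103). OASL was below the minimum and was left out. The measure is a description over 6 libraries of 2 genotypes, in which many genes share a profile.

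**Figure D4:**
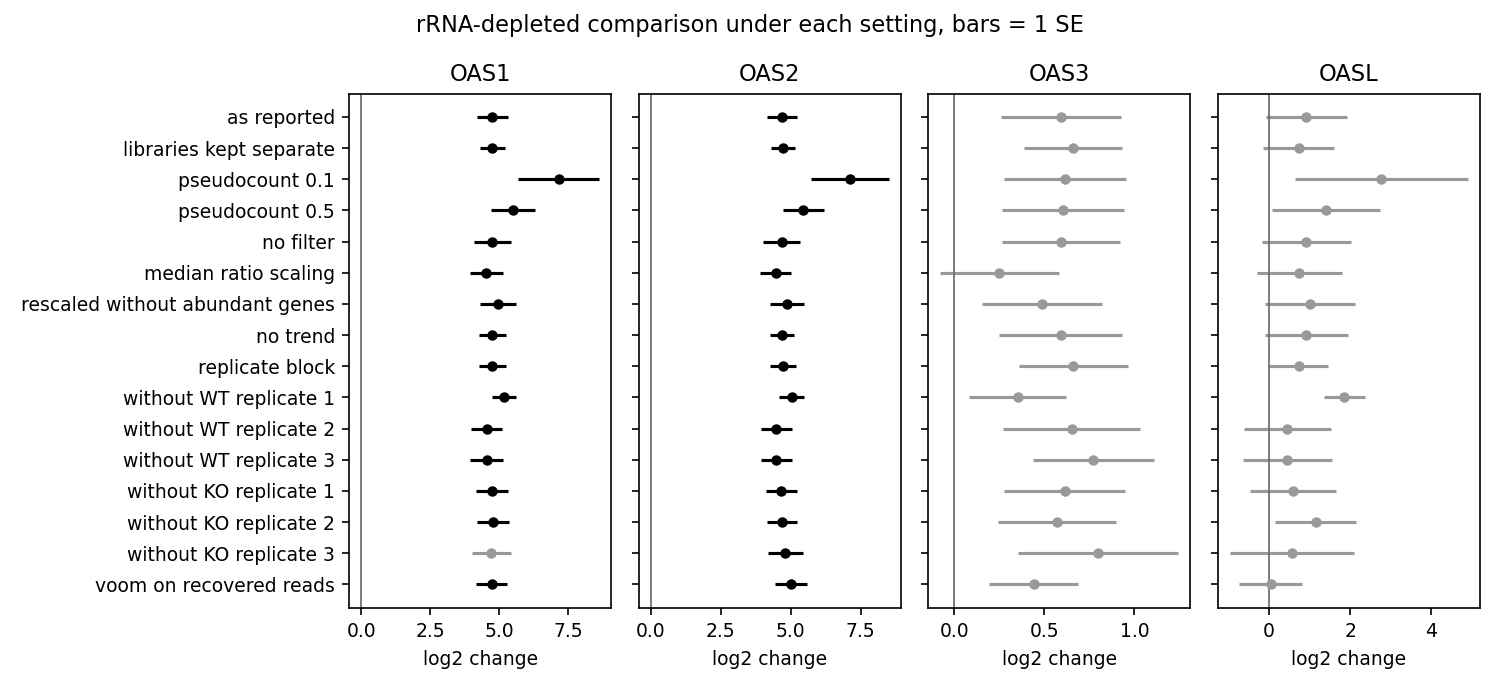
Log2 change of each OAS gene in the rRNA-depleted libraries (x axis) as reported and under 15 other settings (y axis); bars are 1 SE, black points have a limma adjusted p under 0.05 and grey points do not. OAS1 stays between 4.55 and 7.16, OAS2 between 4.46 and 7.11 and OAS3 between 0.25 and 0.80, and OAS1 loses the threshold without KO replicate 3.

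Calls in the rRNA-depleted libraries changed for 1 of the 4 OAS genes. OAS2 passed under all 15 alternatives, with limma adjusted p-values up to 0.0434. OAS1 passed under 14 and lost the threshold without knockout-labelled library 3 (log2 change 4.72, limma adjusted p 0.0556), which leaves 1 knockout-labelled sample that is assumed to vary like the wild type. OAS3 and OASL passed under none of the 15 alternatives, with limma adjusted p-values no lower than 0.0881 and 0.0602. The direction of all 4 genes was the same in each. For OASL the log2 change ran from 0.03 to 2.77 and the ratio of depth-scaled reads was 0.989, so its direction was not settled.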

How the data were processed

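Per the submitters' processing notes, the data were made with Trimmomatic, STAR and DESeq2 on hg38; counting tool, annotation and strand use are not given in the sources used here. For 6 rRNA-depleted libraries the authors deposited TPM; 0 columns of such values were set aside. For the 10 poly(A) libraries the deposited table holds, per the file headers, a mean normalized count (a pooled signal), a log2 fold change with its SE, the Wald statistic (a score) and p-values before and after adjustment. The numerator of the authors' deposited log2 fold change is not stated. It was taken as the knockout, because of 158 genes outside the lists that passed both thresholds with a change of at least 1 in each library type, 91.1% then had the same sign; otherwise all directions from that table would be opposite.

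Lengths (union of exons), positions and GC content came from GENCODE 29, which matched 56927 of 60669 genes. With them 90.9% of TPM values above 0 were whole reads, to within 0.02, and all values of the OAS genes were. Counting intervals and the limit of 3 reads for a count of 0 cover counting error only, as the sources name no molecular identifiers. Library pairs were compared by a chi-square test over genes with whole reads and at least 10 reads in the pair. TPM was tested as log2(TPM + 1) with limma 3.58.1 in R 4.3.3 (eBayes with trend), for genes that reached 1 TPM in 3 or more libraries, with Benjamini-Hochberg adjustment over all 14789 genes at 0.05. This scale understates changes of low genes. The fit was tested on simulated reads, where 81 of 200 changed genes passed in a fit over all genes. Each changed gene was given a log2 change of 2 in either direction and had at least 5 expected reads in the shallowest library. The shares that passed thus do not apply to smaller changes, such as that of OAS3, or to genes with fewer reads, such as OASL. In a fit of genes with at least 5 expected reads in the shallowest library, 175 of 200 passed. A gene that did not pass may thus still have changed. Other steps used Python 3.11.15, scipy 1.17.1 and matplotlib 3.10.9. The members and lists were chosen by name, with earlier results of these data known; CCL2, DHFRP1, LYSMD3, NOL4L, ORC1 and SLC4A8 were named by the rule on likeness, and AC004551.1 as the gene that overlaps the members. Values of some list genes are not reported here, though the lists' counts and medians include them. Alternatives covered scaling, pseudocount, filter, trend, voom on recovered reads, the averaging of 2 libraries, a replicate block and leaving out each library.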

Additional observations from a re-analysis of the deposited data

How the results depend on the processing

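Under 15 alternatives OAS2, OAS3 and OASL kept their direction and their side of the threshold in 15 and OAS1 in 14; OAS1 lost it without knockout-labelled library 3 (4.72, limma adjusted p 0.0556). Leaving out 1 library in turn gave log2 changes of 4.55 to 5.19 for OAS1, 4.49 to 5.03 for OAS2, 0.35 to 0.80 for OAS3 and 0.45 to 1.86 for OASL. A pseudocount of 0.1 TPM gave 7.16 for OAS1, 7.11 for OAS2 and 2.77 for OASL, and voom on recovered reads gave 0.03 for OASL. The number of genes past the threshold, 5220 in the main comparison, ranged from 1663 to 5185 when 1 library was left out, the lowest without knockout-labelled library 3, and was 2242 at an adjusted p of 0.01. Median ratio scaling gave 2364 higher and 2499 lower genes, or 48.6% higher, against 3382 and 1838 (64.8%) with TPM as deposited. For the poly(A) libraries, a log2 fold change of at least 1 in size reduced the authors' deposited 2782 genes to 647. With a gap of 1 or 2 bases in the promoter motif, 6.40% of windows held it, against 3.57% with 2 bases.

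The replicate numbers in the titles did not pair the samples: same-numbered libraries had correlations of 0.0203, -0.0205 and 0.00821 between their deviations from the group means. With a replicate block and the 6 libraries as separate samples, 6037 genes passed (6880 without the block), with log2 changes of 4.75 for OAS1, 4.71 for OAS2, 0.66 for OAS3 and 0.73 for OASL and no change of call. Among the named genes of the lists, IFIT1, IFIT3, IFI6, RIGI, ADAR, JAK1, IFNAR1, IFNAR2, MX1, STAT2 and ABCE1 lost the threshold without knockout-labelled library 3, where 1 sample stands for that genotype; MX1 lost it under 7 of 15 alternatives in all, and IFIH1 passed with the block and under voom. With 1 to 3 wild-type reads, the size of the changes of OAS1, OAS2 and OASL is limited by depth.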
